A study of Mus musculus with 8 samples.

Results

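Chemokines and their receptors were followed in mouse distal colon as the 62 genes of a deposited table of 52143 genes whose symbols name them: CC and CXC ligands, CCR and CXCR receptors, Cx3cl1, Xcl1, Xcr1 and the atypical receptors Ackr1 to Ackr4. Of 68 such entries, those that repeated a symbol (copies of Ccl19, Ccl21a, Ccl21b, Ccl21c and Ccl27a) were reduced to the entry with the highest mean. The 62 comprised 39 ligands, 17 signalling receptors, 4 atypical receptors and 2 pseudogenes. Whole-tissue RNA was sequenced from 4 control samples, labelled Control, and 4 Siglec-XII samples, labelled SiglecXII. The baseline comparison asks which transcripts differ once the colon epithelium makes human Siglec-XII. The mice were 8-week-old females. The controls were Villin1-Cre-ERT littermates without the Siglec allele. The SIGLEC12-Villin1-Cre-ERT mice carried in addition a single floxed copy of SIGLEC12 in the ROSA26 locus, behind a CAG promoter and an EGFP-stop cassette. Both groups received intraperitoneal tamoxifen (10 mg/ml) on 5 consecutive days, and colon was taken 7 days after the last dose. The Villin1 promoter drives Cre in intestinal epithelium, so other cells of the dissected colon were not targeted, and both groups carried Cre and had received tamoxifen. The labels do not say that the 4 samples of a group came from 4 animals, and the design text speaks of 3 mice per condition. The methods describe 3 technical libraries per sample, and how these relate to the 4 listed samples is not given in the sources used here. Errors and p-values therefore measure the spread between these samples.

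Chemokines are small secreted proteins that draw leukocytes along gradients by binding G protein-coupled receptors on the cell surface. Conserved cysteines divide them into CC, CXC, XC and CX3C families, and many ligands share a receptor. In the colon, epithelial ligands keep plasma cells, lymphocytes and macrophages in the mucosa, stromal ligands build lymphoid follicles, and a further set of CXC ligands calls neutrophils through CXCR2. Atypical receptors bind chemokines without G protein signaling and remove them.

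Levels are in TPM, a transcript's share of its library after correction for length, so that they can be compared between genes. Differences are Siglec-XII minus control on the deposited log2(TPM + 1) scale, which understates changes of low genes. A gene was tested when its TPM was at least 1 in at least 4 samples. Tested genes numbered 13164 in all and 16 among the chemokines and receptors, which were 14 ligands and the atypical receptors Ackr3 and Ackr4. Of the other 46, 7 were listed at 0 in every sample. No Siglec-XII, EGFP or Cre transcript is listed, so the groups could not be checked against the transgene. All 8 of 8 epithelial markers were tested, with summed TPM of 7476 to 10920 in controls and 8335 to 10860 in Siglec-XII samples. The libraries Siglec-XII 3 and 4 stood apart from the other 6 on the first principal component, and their median gene lay 0.23 and 0.37 below the mean of all samples on the log2 scale. The median of all tested genes was accordingly -0.15 between the groups, and 78.1% of them had the lower mean in Siglec-XII samples.

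No chemokine or receptor gene passed the test between the groups. Of the 16 tested, 0 had an adjusted p at or under 0.05 (limma with Benjamini-Hochberg adjustment over all tested genes), where 0.038% of all tested genes did. At an unadjusted p at or under 0.05, 0 of 16 were higher in Siglec-XII samples, against 1.19% of all tested genes, and 0 of 16 were lower, against 7.67%. With a fold change of at least 2 as well, the count was 0 of 16, against 0.919%. The sample values of the groups overlapped for all 16, where 5.11% of all tested genes did not overlap. With 16 genes, the background shares correspond to about 1 gene or fewer, so these counts do not set the members apart from other genes. Without control 1, Ccl5 and Cxcl5 came to an unadjusted p at or under 0.05, and without Siglec-XII 1 so did Ccl8, again with 0 past adjustment. The median difference of the 16 was 0.035, and 6 of them had the lower mean in Siglec-XII samples. Of those 6, Ccl28, Ccl21a, Cxcl14 and Ackr3 became the higher ones after median centring of the samples, as did Ccl28, Ccl21a and Ackr3 after quantile normalization.

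The summed TPM of the 39 ligands came mostly from a few of them. A mean TPM of at least 1 in controls was reached by 17 genes, of which 15 were ligands. Ccl6, a CC chemokine of mice that attracts myeloid cells through CCR1, made up between 44.3% and 59.3% of that sum in a sample. Together with the epithelial ligands Ccl28 and Cx3cl1 it made up 73.7% to 85%. The sum leaves out chemokines whose symbols are outside the naming rule. With the platelet chemokine genes Ppbp and Pf4 counted as well, the share of Ccl6 was 32.8% to 55.2%, lowest in control 2, where Ppbp was at a TPM of 245. Mif, Cklf and Rarres2, also outside the rule, were still not counted. Mif had a mean TPM of 262.5 in controls and 174.3 in Siglec-XII samples.

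**Figure D1:**
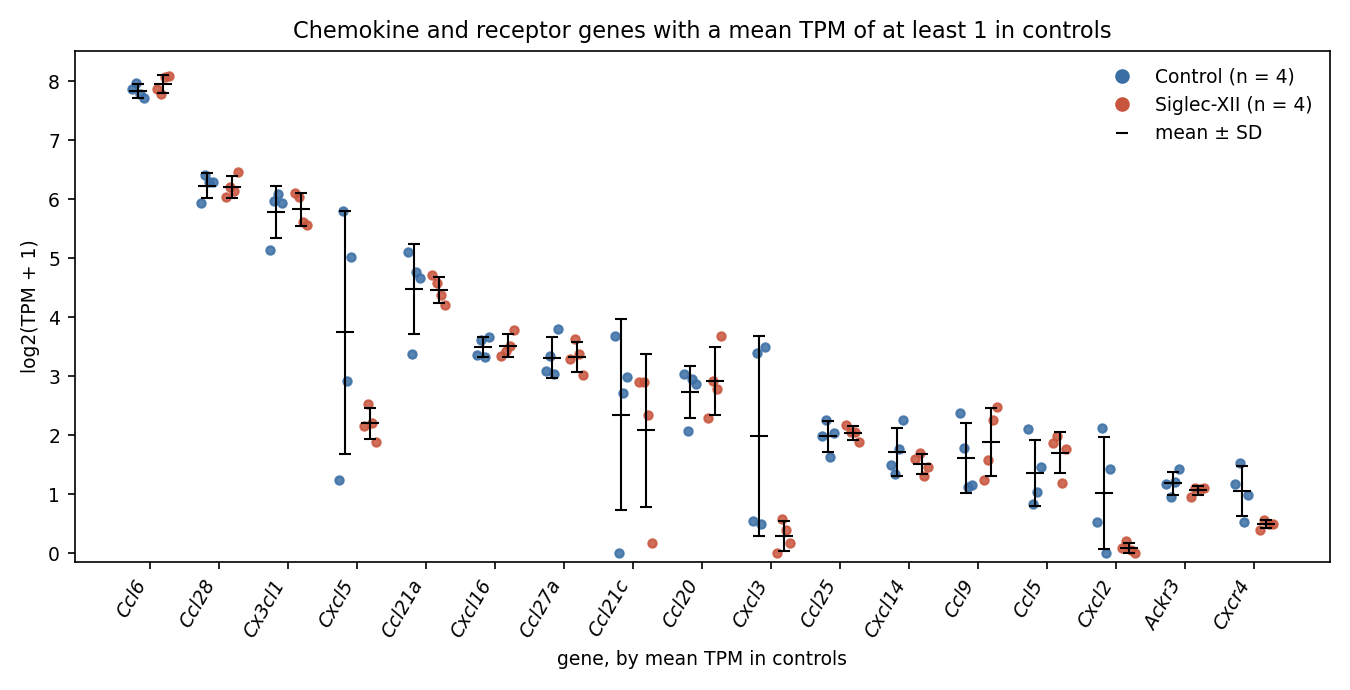
Level of each chemokine and receptor gene with a mean TPM of at least 1 in controls, as log2(TPM + 1) (y axis), ordered by the control mean (x axis). Points are samples (4 Control, blue; 4 Siglec-XII, red), with the mean and SD in black. Ccl6 leads in every sample, and the widest spread among controls is that of Cxcl5, from a TPM of 1.36 to 54.6.

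Ccl6 (ENSMUSG00000018927; GRCm38 chr11:83587882-83593087, minus strand) was at a TPM of 234, 250, 220 and 208.5 in controls 1 to 4. In Siglec-XII samples 1 to 4 it was at 233, 219, 270 and 273. The groups overlapped, with the highest values in the libraries Siglec-XII 3 and 4. The difference was 0.12 (standard error 0.10, 95% interval -0.11 to 0.35, adjusted p = 0.588, limma), and it was -0.01 without those 2 libraries.

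Ccl28 (ENSMUSG00000074715; chr13:119623819-119654359, plus strand) is a mucosal chemokine that draws IgA-producing plasma cells through CCR10. Its TPM was 60.2, 83.9, 77.5 and 77.7 in controls and 64.9, 72.7, 69.2 and 87.1 in Siglec-XII samples. The ranges lay over each other, and the difference was -0.02 (standard error 0.13, interval -0.32 to 0.27). Ccl6 exceeded Ccl28 in 8 of 8 samples, and Ccl28 exceeded the next ligand, Cx3cl1, in 7 of 8.

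Cx3cl1 (ENSMUSG00000031778; chr8:94772009-94782427, plus strand) encodes fractalkine, a membrane-anchored ligand of CX3CR1 on intestinal macrophages. It was at 34.2, 61.7, 67.3 and 60 TPM in controls, where control 1 was low, and at 67.6, 64.9, 48.0 and 46.1 in Siglec-XII samples. The difference was 0.05 (standard error 0.22, interval -0.46 to 0.55).

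The other tested epithelial and homeostatic ligands had means close to each other in both groups. Cxcl16, a transmembrane ligand of CXCR6, had a mean TPM of 10.3 ± 1.36 among controls and 10.5 ± 1.60 among Siglec-XII samples (here and below, ± gives the SD, with n = 4). Ccl27a, a ligand of CCR10 best known from skin, was at 9.20 ± 2.64 and 9.16 ± 1.74. Ccl20 guides CCR6-positive lymphocytes and dendritic cells to lymphoid follicles, and was at 5.87 ± 1.82 and 7.07 ± 3.40. Its highest value, 11.9, was that of Siglec-XII 4. Ccl25, which recruits CCR9-positive cells and is typical of small intestine and thymus, was at 2.99 ± 0.69 and 3.13 ± 0.34. Cxcl14, a homeostatic ligand of epithelia and stroma, was at 2.39 ± 1.0 and 1.88 ± 0.33. Among these 5, the 95% interval of the difference was narrowest for Cxcl16 (-0.30 to 0.35) and widest for Ccl20 (-0.52 to 0.90). For all 16 tested members the intervals included 0, and for Cxcl5 and Ccl21c they spanned more than 3 log2 units.

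Ligands of monocytes, T cells and eosinophils apart from Ccl6 were low. Ccl8, a CC ligand of the cluster on chromosome 11, was at 0.285, 0.240, 0.753 and 1.02 TPM in controls and at 0.176, 1.01, 1.63 and 1.97 in Siglec-XII samples. Only Siglec-XII 3 and 4 lay above every control, and the difference was 0.43 (standard error 0.30, interval -0.25 to 1.11, adjusted p = 0.543, limma). Without Siglec-XII 1 it was 0.70. Ccl5, which attracts T cells and eosinophils, was at 3.33, 0.783, 1.05 and 1.74 in controls and at 2.64, 2.96, 1.29 and 2.42 in Siglec-XII samples. The highest sample was control 1, so the groups overlapped, with a difference of 0.34 (standard error 0.29, interval -0.32 to 1.0, adjusted p = 0.589, limma). It was 0.60 without control 1 and 0.17 without control 2. Ccl9, a neighbour of Ccl6 on chromosome 11 that also acts through CCR1, was at 4.2, 2.45, 1.18 and 1.24 in controls and at 1.36, 2.0, 3.78 and 4.59 in Siglec-XII samples. Siglec-XII 3 and 4 were again the highest of their group, and the difference of 0.28 (standard error 0.36, interval -0.52 to 1.08) was -0.20 without them.

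Of the ligands that attract neutrophils, Cxcl5 and Cxcl3 varied widely among controls. Cxcl5, Cxcl3, Cxcl2 and Cxcl1 lie together on chromosome 5 of GRCm38 with Ppbp and Pf4, which encode 2 platelet chemokines, and Cxcl15, a ligand known from lung epithelium. All 4 ligands, and the protein made from Ppbp, signal to neutrophils through CXCR2. Apart from Cxcl5, which is among the 5 tested members with the largest difference, the genes of this cluster were chosen for description after their values were seen.

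Promoters are shown for Cxcl1, Cxcl2 and Cxcl3, the ligands of the cluster best known as targets of NF-κB, because Cxcl2 and Cxcl3 were high in the same samples and Cxcl1 was not. The sequences are from RefSeq on GRCm38.p6, plus strand, from 130 to 31 bases before the annotated start, at chr5:90891115-90891214 for Cxcl1, chr5:90903769-90903868 for Cxcl2 and chr5:90785971-90786070 for Cxcl3. Capitals mark each match to a κB spelling of 10 letters, which reads GGG, any 2 letters, TT, any 1 letter and CC, searched on both strands.
Cxcl1: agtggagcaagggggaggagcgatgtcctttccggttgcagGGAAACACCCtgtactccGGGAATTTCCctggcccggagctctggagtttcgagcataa
Cxcl2: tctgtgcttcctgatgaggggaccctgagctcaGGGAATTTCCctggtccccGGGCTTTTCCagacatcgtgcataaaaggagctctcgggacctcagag
Cxcl3: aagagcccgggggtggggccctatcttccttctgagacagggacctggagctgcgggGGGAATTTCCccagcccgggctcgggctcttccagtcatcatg

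The matches began 89 and 71 bases before the start in Cxcl1, 97 and 78 in Cxcl2 and 73 in Cxcl3. All 3 promoters held the same 10 letters, GGGAATTTCC. In the whole windows of 300 bases (250 before to 50 after the start), 10 of 51 promoters of 44 members held a match (19.6%), as did 4.79% of 32851 promoters. The 10 belonged to Ccl9, Ccl19, Ccl20, Ccr3, Ccr6, Cxcl1, Cxcl2, Cxcl3, Cxcl9 and Cxcl10. The other members outside the 44, Cxcl5 among them, had no promoter in the set and were not searched. The motif was chosen with the values known, and a match is a description of letters and not of binding.

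Cxcl5 (ENSMUSG00000029371; chr5:90759360-90761624, plus strand) was at 1.36, 54.6, 6.54 and 31.5 TPM in controls 1 to 4. It was at 3.47, 4.80, 3.64 and 2.71 in Siglec-XII samples. Controls 2 and 4 lay above the other 6 samples, and control 1 was the lowest of all 8. The difference was -1.54, the largest of the tested members, with a standard error of 0.86 and a 95% interval of -3.48 to 0.39 (adjusted p = 0.515, limma). The SD among controls was 2.07 log2 units, larger than that of 99.7% of all tested genes, against 0.26 among Siglec-XII samples. Leaving out control 2 gave -0.86, and leaving out control 1 gave -2.38 (unadjusted p = 0.0036, adjusted p = 0.445, limma).

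Cxcl3 (chr5:90786103-90789600) was at 0.464, 9.55, 0.403 and 10.3 TPM in controls and 0, 0.487, 0.318 and 0.133 in Siglec-XII samples. Cxcl2 (chr5:90903871-90905938) was at 0.444, 3.37, 0 and 1.68 in controls and 0.057, 0.158, 0.040 and 0 in Siglec-XII samples. In both genes controls 2 and 4 were the 2 highest samples, while control 3 lay within the Siglec-XII range. Their transcripts shared 161 windows of 31 bases, which is 7.59% of those of Cxcl2, so a small part of the reads could have been divided between them. Both were below the filter. In a fit with no filter, the differences were -1.70 for Cxcl3 (standard error 0.77, unadjusted p = 0.0588) and -0.93 for Cxcl2 (standard error 0.42, unadjusted p = 0.0596, limma), and their adjusted p was 0.682.

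Other genes of the cluster did not all share this order. Ppbp was at 10.9, 245, 25.1 and 102 TPM in controls and 30.8, 58.6, 29.5 and 28.4 in Siglec-XII samples, again highest in controls 2 and 4. Pf4, between Ppbp and Cxcl3, was at 3.85, 3.96, 4.18 and 4.80 in controls and at 3.79, 3.31, 3.87 and 2.35 in Siglec-XII samples. Cxcl1, the KC chemokine, was at 0.056, 0.365, 1.07 and 0.499 in controls and at 0.243, 0.193, 0.291 and 0.914 in Siglec-XII samples. Its highest samples were control 3 and Siglec-XII 4, so it went with neither Cxcl2 nor Cxcl3. Cxcl15 was at most 0.095 in any sample, and its 2 highest samples were controls 2 and 4.

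The receptor of these ligands, Cxcr2 (chr1:74153989-74161246), which is carried mainly by neutrophils, was low and was also highest in controls 2 and 4. It was at 0.225, 1.31, 0.140 and 0.661 TPM in controls and at 0.103, 0.217, 0.040 and 0.105 in Siglec-XII samples. Cxcr1, the other receptor of this kind, was listed at 0 in all 8 samples. Summed over Cxcl1, Cxcl2, Cxcl3 and Cxcl5, the TPM was 2.33, 67.9, 8.02 and 44.0 in controls and 3.77, 5.64, 4.29 and 3.76 in Siglec-XII samples.

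**Figure D2:**
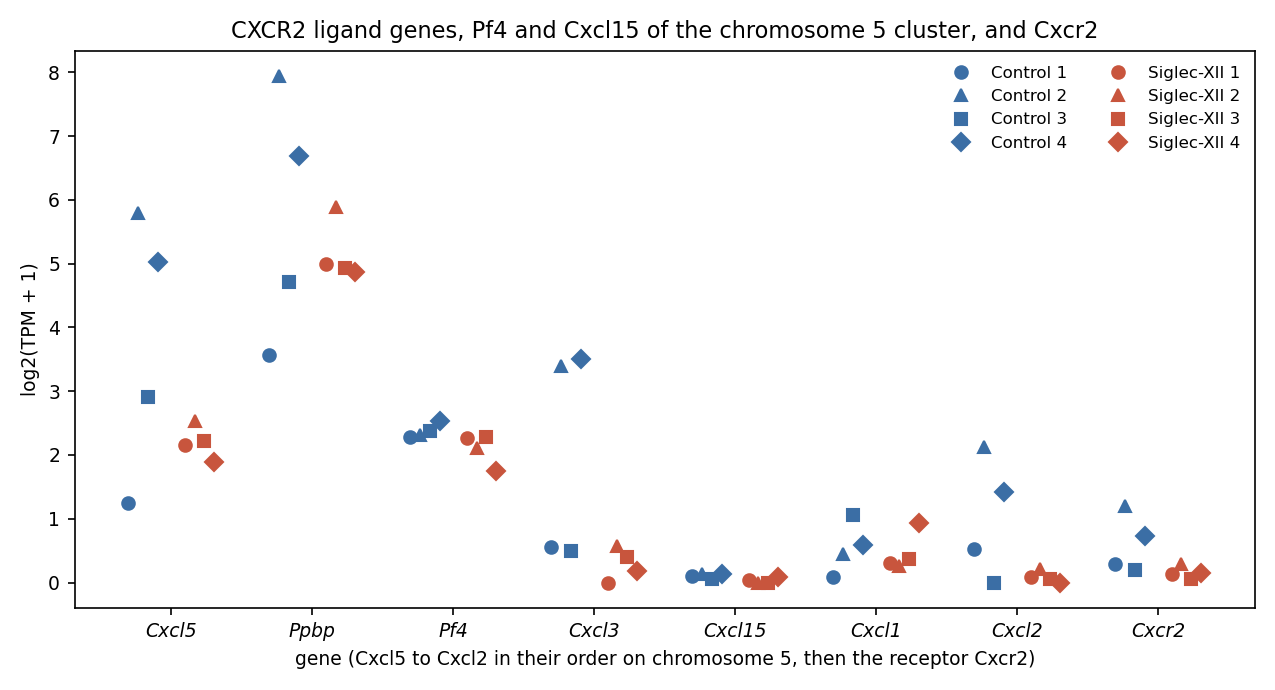
Level of the genes of the chromosome 5 cluster and of the receptor Cxcr2 as log2(TPM + 1) (y axis) in each of the 8 samples. Blue symbols are controls and red symbols Siglec-XII samples, with the shape giving the sample number. Controls 2 (triangle) and 4 (diamond) are the 2 highest samples for Cxcl5, Ppbp, Cxcl3, Cxcl2 and Cxcr2, which reach a TPM of 54.6, 245, 10.3, 3.37 and 1.31, and not for Pf4 or Cxcl1. They are also the 2 highest for Cxcl15, which stays at or under 0.095.

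Neutrophil markers were measured beside these genes. S100a8 was at 9.61, 22.4, 11.9 and 40.9 TPM in controls and at 4.03, 1.38, 0.957 and 3.09 in Siglec-XII samples. S100a9, its partner in calprotectin, was at 13.6, 55.7, 17.2 and 89.1 and at 3.64, 4.80, 1.25 and 5.39. Csf3r, the receptor of the granulocyte growth factor G-CSF, was at 0.014, 1.52, 0.036 and 0.806 and at 0, 0.136, 0.025 and 0.087. All 3 were thus highest in controls 2 and 4. Of the 5 markers of the list 3 were tested, of which S100a8 and S100a9 were lower at an unadjusted p at or under 0.05, as were 7.67% of all tested genes, and 0 passed adjustment (limma). The summed TPM of the list was 265 to 459 in controls and 232 to 365 in Siglec-XII samples. Most of that sum was Ly6g, at 229.8 to 356 with no order by group, and Mpo, a defining enzyme of granulocyte precursors, was at most 0.082. The part of neutrophils in the level of Cxcl5 and its neighbours was not tested. In whole tissue, fewer cells of a type and less RNA per cell cannot be told apart.

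Among the stromal and lymphoid ligands, CCL21 is listed under several copies of its gene. CCL21 guides CCR7-bearing dendritic cells and T cells into lymph vessels and follicles, and its copies in the mouse genome resemble each other. The table lists 9 copies, of which 6 were at 0 in every sample. Ccl21a (ENSMUSG00000094686) lies at chr4:42772860-42773993 on the minus strand, and Gm21541 (ENSMUSG00000094065), a copy whose symbol is outside the naming rule, at chr4:41903610-41904743 on the plus strand. Their transcripts of 870 bases differed at 6 positions. The stretch from position 129 to 299 is shown to let the reader see how little separates them, with capitals at the 2 differences in coding sequence.
Ccl21a: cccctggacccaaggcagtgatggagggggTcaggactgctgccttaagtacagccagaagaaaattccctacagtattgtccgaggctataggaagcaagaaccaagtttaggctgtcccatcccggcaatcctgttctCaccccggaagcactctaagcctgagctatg
Gm21541: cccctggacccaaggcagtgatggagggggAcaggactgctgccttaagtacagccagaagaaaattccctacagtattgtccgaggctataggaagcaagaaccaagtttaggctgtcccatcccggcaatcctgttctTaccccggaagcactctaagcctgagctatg

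Counted from 1 at the 5′ end of the transcript and with the base of Ccl21a first, the coding differences were T159A in exon 2 and C269T in exon 3, and the others were G24A, C640T, T812C and G856A outside the coding sequence. Of the 31-base windows of Ccl21a, 80.6% also occurred in Gm21541. The sequence of Ccl21c was not compared here.

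Ccl21a was at 33.4, 9.42, 26.4 and 24.4 TPM in controls and at 25.2, 22.8, 19.8 and 17.4 in Siglec-XII samples. Control 2 was the lowest and control 1 the highest of the 8, so the Siglec-XII samples all lay within the control range. Ccl21c (ENSMUSG00000096271), on the unplaced scaffold GL456350.1 from 211325 to 212455 on the minus strand, was at 11.9, 4.6e-06, 5.58 and 6.97 in controls and at 6.51, 6.5, 4.07 and 0.122 in Siglec-XII samples. In control 2 and Siglec-XII 4, the samples where Ccl21c was near 0, Gm21541 was at 3.32 and 7.21 TPM, and in the other 6 samples it was at most 0.050.

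Values of genes that share so many windows are uncertain when taken alone, so their sum is given as well. Whether reads moved between Ccl21c and Gm21541 was not tested. The sum was 45.3, 12.7, 32.0 and 31.4 in controls and 31.8, 29.3, 23.9 and 24.7 in Siglec-XII samples, which overlapped. Ccl21a made up 70.4% to 82.9% of it. Taken singly, the differences were -0.01 for Ccl21a (standard error 0.33, interval -0.77 to 0.74) and -0.27 for Ccl21c (standard error 0.85, interval -2.20 to 1.66). Ccl27a, Ccl19 and Ccl27b are uncertain in the same way, since 57%, 58.8% and 100% of their windows occurred in other genes.

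**Figure D3:**
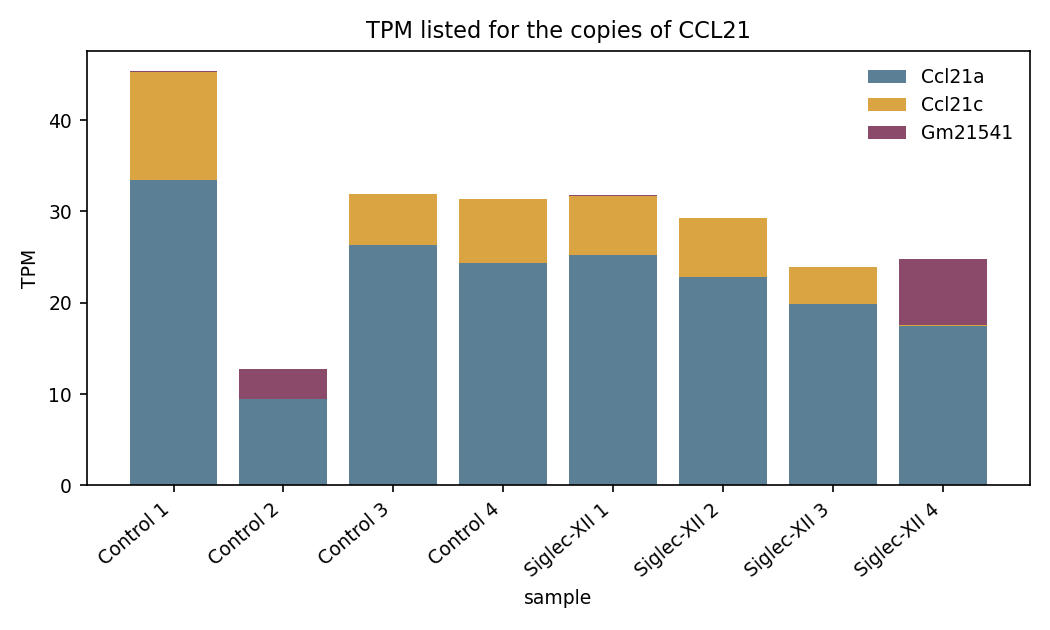
TPM of the 3 copies of CCL21 with a value above 0 (stacked bars, y axis) in each of the 8 samples (x axis). Control 2 and Siglec-XII 4 show Gm21541, at 3.32 and 7.21 TPM, and almost no Ccl21c, while Ccl21a holds 70.4% to 82.9% of every bar.

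Of the other stromal ligands, Cxcl12, the ligand of CXCR4, reached at most 1.22 TPM and Cxcl13, which organizes B cell follicles through CXCR5, at most 1.5, both in control 1. Ccl19, the second CCR7 ligand, reached 0.084. The interferon-induced CXCR3 ligands were low in both groups, at most 1.73 TPM for Cxcl10, 0.253 for Cxcl9 and 0.058 for Cxcl11. Cxcl10 was highest in control 4 (1.60) and Siglec-XII 4 (1.73). Cxcl17, a mucosal ligand, was at 2.39 in control 2 and at most 0.089 elsewhere.

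The remaining CC ligands and Xcl1 were below the filter. Their highest TPM was 1.18 for Ccl17, 0.831 for Xcl1, 0.809 for Ccl3, 0.781 for Ccl4, 0.715 for Ccl24, 0.600 for Ccl22, 0.378 for Ccl11, 0.330 for Ccl12, 0.306 for Ccl7 and 0.161 for Ccl2. The ligands Ccl1, Ccl21b, Ccl26 and Ccl27b, the receptor Cxcr1 and the pseudogenes Ccl19-ps1 and Ccl19-ps3 were the 7 listed at 0 throughout. Ccl3, a macrophage product that binds CCR1, was at 0.152, 0.809, 0.066 and 0.088 in controls and at 0 in all 4 Siglec-XII samples. In the fit with no filter its unadjusted p was 0.0847 and its adjusted p 0.682 (limma). With values in 1 group alone, it is left out of the count of low genes without overlap given below for Cxcr6.

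Receptors were scarce compared with ligands. The 17 signalling receptors together came to 5.27, 7.31, 3.16 and 4.06 TPM in controls and 1.84, 2.82, 2.05 and 3.14 in Siglec-XII samples. The lowest control lay only just above the highest Siglec-XII sample. After each sample was scaled by its median gene, an alternative chosen after seeing the data, the groups overlapped, at 2.95 to 6.43 in controls and 1.70 to 4.07 in Siglec-XII samples.

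By the control mean, Ackr3, an atypical receptor that takes up CXCL12, led the receptors, but it exceeded Cxcr4 in only 2 of 4 controls. It was at 1.25, 0.927, 1.30 and 1.68 TPM in controls and at 0.946, 1.14, 1.13 and 1.16 in Siglec-XII samples. The difference was -0.12 (standard error 0.14, interval -0.43 to 0.19). Ackr4, which takes up CCL19, CCL21 and CCL25, was at 1.10, 0.449, 0.519 and 1.61 in controls and at 1.18, 1.12, 0.946 and 0.910 in Siglec-XII samples. Controls 2 and 3 were the low ones here, and the difference was 0.13 (standard error 0.20, interval -0.32 to 0.58). Ackr2 and Ackr1, the latter known from venules and red cells, reached 0.862 and 0.401.

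Cxcr4 (chr1:128588199-128592293, minus strand), the CXCL12 receptor of most leukocytes, was at 1.27, 1.89, 0.438 and 0.976 TPM in controls and at 0.316, 0.478, 0.417 and 0.415 in Siglec-XII samples. Of the controls only the third lay within the Siglec-XII range. Cxcr6 (chr9:123806475-123811760, plus strand), the CXCL16 receptor of resident T cells, was at 0.484, 0.387, 0.334 and 0.217 in controls and at 0.119, 0.184, 0.083 and 0.144 in Siglec-XII samples, with no overlap. Among the 33 members below the filter but above a TPM of 0.001 in at least 5 samples, a limit set after seeing the data so that values in 1 group alone could not pass it, Cxcr6 was the 1 gene whose Siglec-XII samples all lay below the controls. Of 8932 such genes 4.08% did so, which corresponds to about 1 gene in 33.

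In the fit with no filter, which covered 55 members, 4 were lower at an unadjusted p at or under 0.05 (limma): Cxcr4 by -0.56, Cxcr6 by -0.26, Ccr10 by -0.21 and Cxcl15 by -0.07. The background share of lower genes in that fit was 5.35%, and that of higher genes 1.17%, with 0 members higher. The lowest adjusted p of the 55 was 0.682. These genes lie under a TPM of 2, where the log2(TPM + 1) scale is compressed and 1 read weighs most.

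Of the 16 receptors below the filter with values in at least 5 samples, 13 had the lower mean in Siglec-XII samples (median difference -0.15). Of all such genes 67.1% did (median -0.03). Of all 33 such members, receptors included, 26 did (78.8%, median -0.13), so lower means were not confined to the receptors. The receptor count was still 13 of 16 after scaling each sample by its median gene, against 22 of 33 members (66.7%) and 55.3% of all such genes. Without Siglec-XII 3 and 4 it was 14 of 16, against 30 of 33 members (90.9%) and 64.15% of all such genes. Each receptor is low, and the receptors of 1 tissue sample share their cells, so the counts are descriptions. The highest TPM was 1.08 for Ccr1, 0.494 for Ccr6, 0.452 for Ccr2, 0.465 for Cxcr5, 0.431 for Ccr10, 0.310 for Ccr9, 0.297 for Ccr4, 0.296 for Cxcr3, 0.208 for Ccr7 and 0.111 for Ccr8. Xcr1 and Ccr3, which mark cross-presenting dendritic cells and eosinophils, did not pass 0.024.

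**Figure D4:**
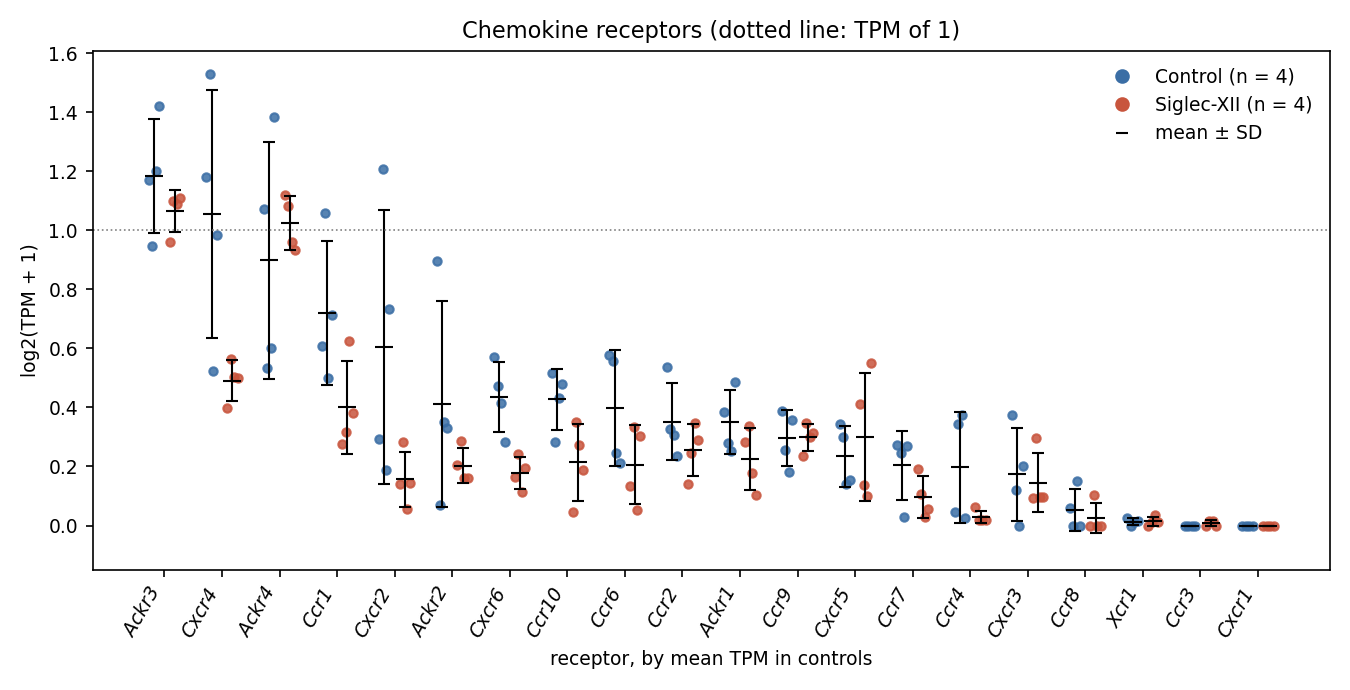
Level of chemokine receptors as log2(TPM + 1) (y axis), ordered by the control mean (x axis), with points for samples (4 Control, blue; 4 Siglec-XII, red) and the mean and SD in black. The dotted line is a TPM of 1. Only Ackr3 and Cxcr4 have a control mean of at least 1 TPM, and Cxcr6 is the receptor whose groups do not overlap.

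Markers of macrophages, T cells, B cells, dendritic cells and eosinophils were low as well, and some macrophage markers were lower in Siglec-XII samples. Lists of other cell types are given beside them. Of 8 macrophage markers 4 were tested, of which C1qb and C1qc were lower at an unadjusted p at or under 0.05 and 0 passed adjustment (limma). For this and the lists that follow, the background is the 7.67% of all tested genes that were lower at that threshold (1010 genes, and 285 after median centring of the samples). The summed TPM of that list was 11.1 to 28.0 in controls and 7.30 to 12.2 in Siglec-XII samples. None of the 6 T cell markers was tested, with sums of 0.941 to 2.80 and 1.03 to 1.98. The 6 B cell markers, likewise untested, summed to 0.922 to 5.88 and 0.502 to 2.09, and the 5 dendritic cell markers to 0.454 to 1.61 and 0.187 to 0.444. The 5 eosinophil markers, also untested, summed to 0.308 to 0.603 in controls and 0.259 to 0.391 in Siglec-XII samples. Of these, Ccr3 and Epx were under 0.05 in every sample, while Siglecf was at 0.218 to 0.484. Of 6 smooth muscle markers 3 were lower at the same threshold, and that list summed to 623 to 1003 in controls and 303 to 651 in Siglec-XII samples. Pecam1 was the lower gene at that threshold among 1 tested of blood endothelium, as was Lgr5 among the 8 of epithelium. The count was 0 of 4 for fibroblasts, 0 of 3 for plasma cells, 0 of 2 each for enteric neurons and glia, mast cells and adipocytes, and 0 of 1 for lymphatic endothelium. The part of leukocyte or muscle content in the receptor values was not tested.

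Ligands and their receptors were not abundant together. Of 42 ligand and receptor pairs, 17 had a ligand with a mean TPM of at least 1 in controls, directed at 10 receptors, and in 0 of the 17 did the receptor reach 1 as well. Ccl28 averaged 74.8 TPM and its receptor Ccr10 0.348. For Cx3cl1 and Cx3cr1 the means were 55.8 and 0.404, for Cxcl16 and Cxcr6 10.3 and 0.355, for Ccl20 and Ccr6 5.87 and 0.327, and for Ccl25 and Ccr9 2.99 and 0.229. Conversely, Cxcr4 and Ackr3 averaged 1.14 and 1.29, while their ligand Cxcl12 averaged 0.927. The count of 0 thus depends on the limit. At a mean TPM of at least 0.5, Cxcl12 passed with both of these receptors. So did Ccl5, Ccl6 and Ccl9 with Ccr1 (0.665), and Cxcl2, Cxcl3 and Cxcl5 with Cxcr2 (0.583). Ackr4 was not among the receptors of the pairs.

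Other genes of chemokine biology were read from 5 lists of 62 genes, of which 37 were tested. They covered further chemokines and receptors, receptor signaling, chemokine processing, the heparan sulfate scaffold and homing adhesion molecules. None passed adjustment, 0 were higher and 1 was lower at an unadjusted p at or under 0.05 (limma), against the 1.19% and 7.67% of all tested genes. That gene was Rgs1, which dampens G protein signaling of chemokine receptors in lymphocytes. It was at 4.19, 1.97, 3.04 and 2.83 TPM in controls and at 0.546, 1.01, 1.14 and 1.03 in Siglec-XII samples, without overlap (difference -1.03, unadjusted p = 0.00045, adjusted p = 0.455, limma).

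**Figure D5:**
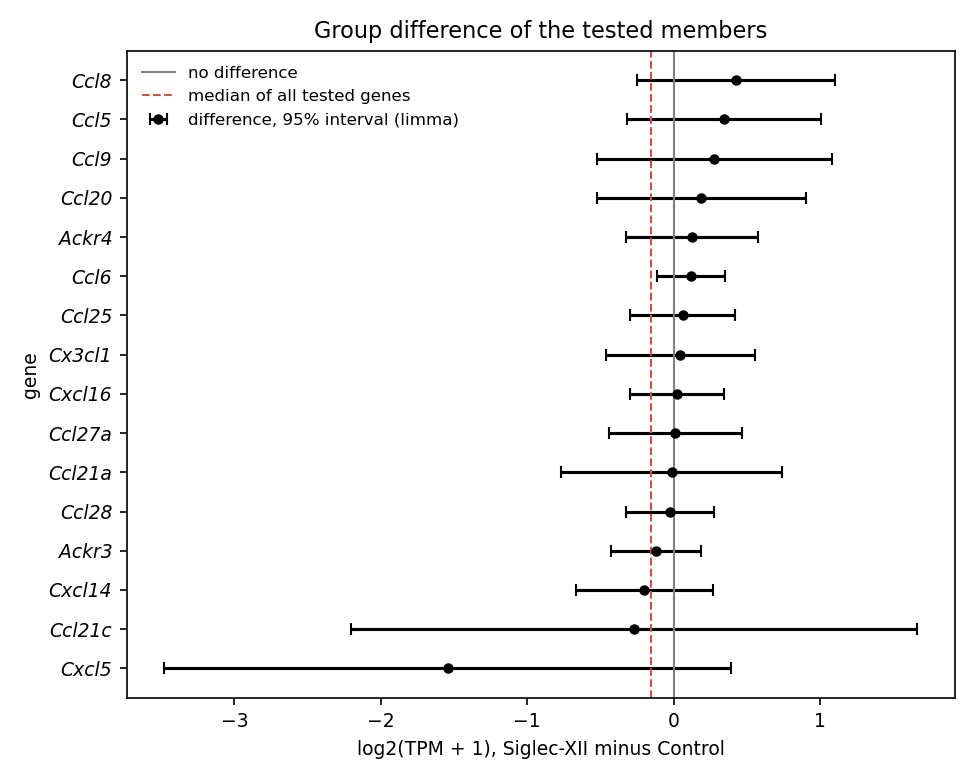
Difference between the groups for the 16 tested members, Siglec-XII minus Control in log2(TPM + 1) (x axis), with 95% intervals from limma. The grey line marks 0 and the dashed red line the median of all tested genes, -0.15. All 16 intervals include 0, from -1.54 for Cxcl5 to 0.43 for Ccl8.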

How the data were processed

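Distal colon RNA of 8 samples, 4 per group, was sequenced (100-base paired ends). The labels name a total RNA kit and the methods an mRNA kit. Per the submitters' processing notes, the authors quantified transcripts with kallisto 0.45.0 on GRCm38 and deposited log2(TPM + 1) per gene. The deposited log2 values keep no read totals, and sequencing depth per value is therefore unknown. Converted to TPM, each sample sums to 1000000. Samples were grouped by the labels, which name no batch. limma 3.58.1 (R 4.3.3; eBayes with trend) was fitted to the deposited log2(TPM + 1), pseudocount 1, of all genes that reached a TPM of 1 in 4 or more samples, with Benjamini-Hochberg adjustment over them, and was tested on simulated data. The count models named in the methods were not used, since no counts are analysed here. Positions are those of GENCODE M21.

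Members, marker lists, pathway lists and the rule for naming genes were chosen with earlier results of these data known. By that rule, tested members were named with their means, and the 3 most abundant ligands and receptors and the 5 largest differences with all sample values. Protein sequences were not used, and 1 member is not reported here by name. Alternatives were other filters, pseudocounts, scalings, sample weights, a replicate block and left-out samples. Leaving out Siglec-XII 3 and 4, scaling low genes by sample and the limit of 5 samples for low genes were chosen after seeing the data.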

Additional observations from a re-analysis of the deposited data

Results flagged for a closer look

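In 6 of 56 groups of 4 samples, 1 sample stood far from the other 3. A rate of 1 in 20 would give about 2.8. That rate holds for independent, normally distributed values, while genes of 1 sample vary together and some lie near 0. The counts are therefore not compared. The values divide the distance between that sample and its neighbour by the whole range of the group, on the log2(TPM + 1) scale. For Cx3cl1 the quotient was 0.830, with control 1 at a TPM of 34.2 below the other controls at 60 to 67.3. Ackr3 gave 0.860, with Siglec-XII 1 at 0.946 below 1.13 to 1.16. The value for Cxcl10 was 0.831, with control 4 at 1.60 above 0.375 to 0.531. Cxcl17 gave 0.930, with control 2 at 2.39 above 0 to 0.089. The value for Cxcl1 was 0.834, with Siglec-XII 4 at 0.914 above 0.193 to 0.291. Ppbp gave 0.888, with Siglec-XII 2 at 58.6 above 28.4 to 30.8. The causes were not tested.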

How the results depend on the processing

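Under every alternative, 0 tested members passed the adjusted threshold (lowest adjusted p 0.208), and of 239 values of single members 199 kept their direction, 40 turned and 0 changed their call. At an unadjusted p at or under 0.05, sample weights gave 1 higher (Ccl5) and 1 lower member (Cxcl5), the latter also past a fold of 2, and no filter gave 4 lower. Leaving out 1 sample gave 0 to 1 in each of these counts (Ccl5 and Cxcl5 without control 1, Ccl8 without Siglec-XII 1). Members expressed in controls numbered 26 at a mean TPM of at least 0.5, 10 at 5, and 17 to 18 with 1 control left out. Over all tested genes, the split of higher and lower genes at an unadjusted p at or under 0.05 was 157 and 1010, against 704 and 408 after quantile normalization, 1137 and 285 after median centring, and 146 and 205 without Siglec-XII 3 and 4, where 0 passed adjustment.

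Directions turned as follows. Quantile normalization gave 0.074 for Ccl28, 0.17 for Ccl21a and 0.042 for Ackr3. Median centring gave 0.19, 0.20 and 0.094 for the same genes and 0.013 for Cxcl14. Sample weights gave -0.0075 for Ccl6, 0.24 for Ccl21a, -0.12 for Cxcl16 and 0.77 for Ccl21c. Without Siglec-XII 3 and 4 the values were -0.012 for Ccl6, 0.16 for Ccl21a, -0.11 for Cxcl16, 0.56 for Ccl21c, -0.13 for Ccl20 and -0.20 for Ccl9. Leaving out 1 sample gave -0.12 to 0.033 for Ccl28, -0.17 to 0.15 for Cx3cl1, -0.38 to 0.19 for Ccl21a, -0.065 to 0.082 for Cxcl16, -0.087 to 0.17 for Ccl27a, -1.05 to 0.37 for Ccl21c, -0.064 to 0.40 for Ccl20 and -0.054 to 0.15 for Ccl25. The causes were not tested.

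With the replicate number as a block, the count of members past the adjusted threshold was 0, and over all genes 4 against 5. Same-numbered samples did not deviate together (correlations -0.16, -0.20, 0.10 and -0.0025), and 0 of 8 samples correlated best with their own number. The check thus gave no sign of a pairing by number, which 4 samples per group cannot exclude. With read totals unknown, how far depth limits the low genes cannot be given.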
